A study of Chlamydomonas reinhardtii with 8 samples.

Results

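The genes described here encode the transporters and channels that are thought to move inorganic carbon, as bicarbonate or CO2, across membranes in Chlamydomonas reinhardtii, a unicellular green alga. They are 8 loci chosen by name, HLA3 (Cre02.g097800_4532.v6.1), LCI1 (Cre03.g162800_4532.v6.1), LCIA (Cre06.g309000_4532.v6.1), CCP1 (Cre04.g223300_4532.v6.1), CCP2 (Cre04.g222750_4532.v6.1), BST1 (Cre16.g662600_4532.v6.1), BST2 (Cre16.g663400_4532.v6.1) and BST3 (Cre16.g663450_4532.v6.1), among the 17693 genes of the deposited count table. The rule for choosing them names the genes and no measured value, though earlier results of these data were known when they were chosen. Gene expression was measured by RNA-seq in 8 libraries of vegetative cells, which were grown with light and acetate in TAP medium; the labels used here do not give the CO2 supply. The 4 groups, of 2 biological replicates each, were dnmt1 mt+ and WT mt+, both of the strain CC-5155, and dnmt1 mt- and WT mt-, both of the strain CC-5325, so that mating type and strain were 1 contrast. The genotype of the dnmt1 groups is given as a DNMT1 knockout, with neither the lesion nor the number of independent lines stated, and WT stands for wild type. Nothing states whether replicates were separate cultures, so p-values measure the spread between these libraries. That spread was pooled over the 4 groups and, in the test, partly borrowed from the other genes.

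The alga lives in water, where CO2 diffuses slowly, and it runs a carbon-concentrating mechanism that pumps inorganic carbon inward until CO2 accumulates around Rubisco in the pyrenoid, a compartment of the chloroplast. HLA3 is an ABC transporter that brings bicarbonate through the plasma membrane, and LCI1 is a CO2 channel of the same membrane. LCIA, a protein of the formate and nitrite transporter family, passes bicarbonate through the chloroplast envelope. BST1, BST2 and BST3 are bestrophin-like channels of the thylakoid membrane, thought to feed bicarbonate to the lumen, where the carbonic anhydrase CAH3 releases CO2. CCP1 and CCP2 belong to the mitochondrial carrier family, and their transported substrate is not settled. These genes are known mainly for induction when CO2 is low, under the regulator CIA5, and acetate lowers the activity of the mechanism.

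The check of the labels by transcript counts could not settle either dnmt1 label, since the lesion is not stated. The locus used for DNMT1, DMT1 (Cre10.g461750), averaged 14.6 ± 1.97 CPM in dnmt1 mt+ and 28.3 ± 0.0849 CPM in WT mt+ (SD, n = 2 each; CPM is the count relative to the TMM-scaled library size). In mt- it averaged 87.5 ± 4.99 CPM in dnmt1 and 26.6 ± 3.02 CPM in WT (SD, n = 2 each), higher where the label names a knockout, though transcript counts say nothing about the protein. Each group of that name is therefore a group of libraries labelled dnmt1, and every direction below rests on the labels. Library totals were 12204374 to 21115955 counts, and replicates of WT mt+ were the least alike (SD of log2 differences over genes 0.47, and 0.32 to 0.34 in the other groups). FUS1 (Cre06.g252750), a gene of the mt+ mating type, had 8 to 28 counts in each mt+ library and 0 in each mt- library, and the gamete genes GSP1 (Cre02.g109650) and GSM1 (Cre08.g375400) had 0 to 12 counts in any library. In bulk RNA, fewer cells that express a gene and less of its RNA per cell cannot be told apart.

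Of the 8 genes, 7 had enough counts to be tested, all but LCI1. Calls are those of edgeR's quasi-likelihood test with p adjusted by Benjamini-Hochberg over 15263 tested genes (threshold 0.05), and ± after a log2 fold change is the standard error. In mt-, LCIA and BST3 were higher and BST2 and CCP2 lower in the libraries labelled dnmt1 than in WT. That is 4 of the 7 tested, where 23.5% of all tested genes were called. In mt+ BST3 was higher and no other was called, which is 1 of 7 beside 18.1% of all tested genes. The effect differed between the mating types for LCIA and BST2, 2 of 7 beside 13.8%. BST2 was the more positive in mt+, beside 6.81% of genes, and LCIA the more negative, beside 1069 of 15263 genes. Between the WT strains 6 of 7 were called, beside 21.5%: HLA3, LCIA, CCP1 and BST3 were higher and CCP2 and BST2 lower in WT mt+ than in WT mt-. Between the strains labelled dnmt1 3 of 7 were called, beside 22.0%, with BST2 and BST3 higher and CCP2 lower in mt+. The comparison of genotypes in mt- and that of the WT strains share the WT mt- libraries, so they are not separate evidence. The median log2 fold change of the 7 tested genes, dnmt1 over WT, was -0.29 in mt+ and 0.44 in mt-, beside -0.00169 and 0.01 over all tested genes. Libraries of the compared groups did not overlap for 4 of the 7 genes in mt+, for 6 in mt-, for 5 between the strains labelled dnmt1 and for 7 between the WT strains, beside 54.2%, 67.3%, 65.5% and 58.2% of all tested genes.

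**Figure D1:**
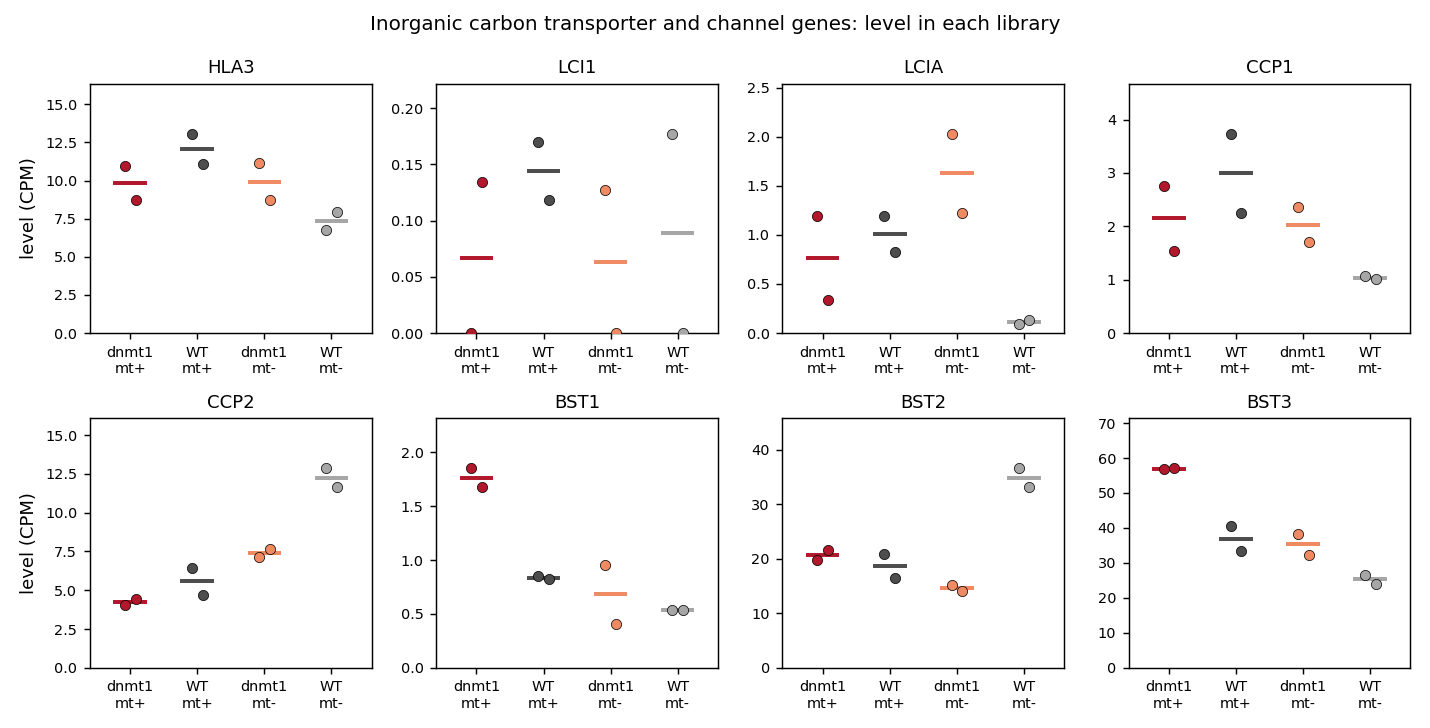
Level of each gene in each library, in CPM on a linear axis from 0, with 1 panel per gene and its own scale. Each point is a library and each bar the mean of 2. The WT mt- libraries lie below all others for HLA3, LCIA, CCP1 and BST3 and above all others for CCP2 and BST2. For BST1 the mean of WT mt- is also the lowest, but its libraries overlap those of dnmt1 mt-. The scale of LCI1 ends near 0.2 CPM.

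**Figure D2:**
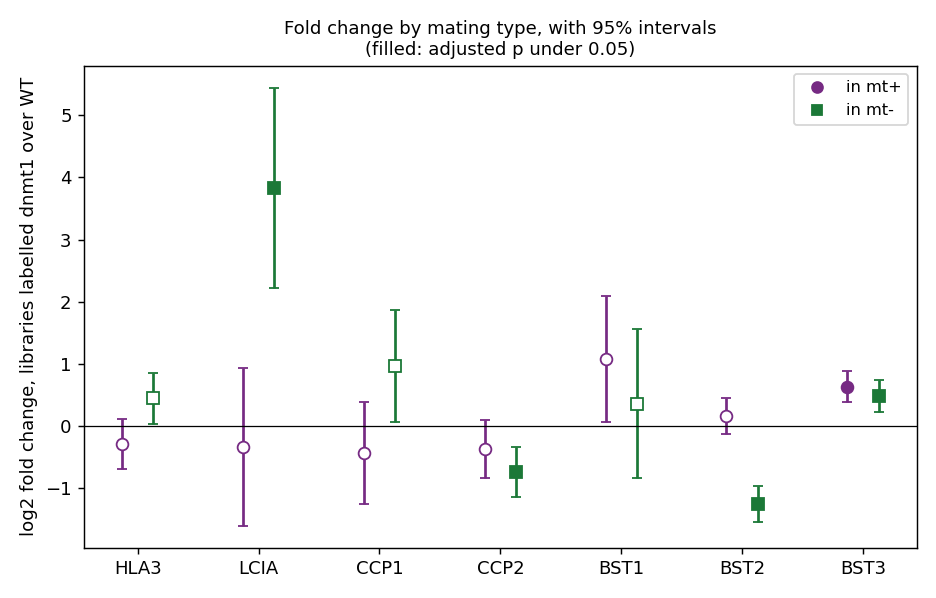
Log2 fold change of the libraries labelled dnmt1 over WT in mt+ (circles) and in mt- (squares) for the 7 tested genes, with 95% intervals from the test; filled symbols passed the threshold. LCIA and BST2 stand apart in mt-, and BST3 lies above 0 in both mating types.

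At the plasma membrane, HLA3 had 10.9 and 8.73 CPM in dnmt1 mt+, against 13.1 and 11.1 CPM in WT mt+. It had 11.1 and 8.72 CPM in dnmt1 mt-, against 6.74 and 7.96 CPM in WT mt-. WT mt+ was highest and WT mt- lowest, and the groups labelled dnmt1 lay between and overlapped each other. Neither overlapped its own WT, though dnmt1 mt- reached just above the lower WT mt+ library. Between the strains labelled dnmt1 the log2 fold change was -0.01 ± 0.19 (95% interval -0.41 to 0.39). Between the WT strains HLA3 was higher in mt+ (log2 fold change 0.72 ± 0.19, adjusted p = 0.0144), a call lost without WT mt- replicate 1 (0.60, adjusted p = 0.153). The genotype effects were not called, at -0.29 ± 0.19 in mt+ (95% interval -0.69 to 0.11) and 0.44 ± 0.19 in mt- (0.03 to 0.85, adjusted p = 0.109). The effect in mt- passed without WT mt+ replicate 1 or 2 (adjusted p = 0.0412 and 0.0360) and in a fit to the mt- groups alone (adjusted p = 0.0452). The difference between the effects was -0.73 ± 0.27 (adjusted p = 0.0870), and -0.86 (adjusted p = 0.0125) without WT mt+ replicate 2.

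LCI1 was at the limit of detection everywhere. It had 0 and 2 counts in dnmt1 mt+, against 2 and 2 in WT mt+. In mt- it had 2 and 0 in dnmt1, against 4 and 0 in WT. A floor of 3 counts corresponds to 0.133 to 0.255 CPM in these libraries, so a decrease or a small change in LCI1 was not detectable at this depth. Low counts were mostly even numbers: among counts of 2 to 19, 25.5% to 30.8% per library were odd. Counting both reads of a pair gives such numbers, so a low count may stand for fewer fragments.

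At the chloroplast envelope, LCIA had the largest fold change of the 7 tested genes in mt-, at a low level. It had 32 and 18 counts in dnmt1 mt- (2.03 and 1.23 CPM), against 2 and 2 counts in WT mt- (0.0887 and 0.135 CPM). In mt+ it had 20 and 5 counts in dnmt1 (1.20 and 0.336 CPM), against 14 and 14 in WT (1.19 and 0.826 CPM). WT mt- alone lay below the floor of 3 counts per library, and the mt+ groups overlapped.

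The ratio of summed LCIA counts, dnmt1 mt- over WT mt-, was 15.4 per unit of library size, with an exact 95% counting interval of 5.64 to 58.6, or of 3.83 to 134 if each fragment was counted as a pair. The gene was called (fitted log2 fold change 3.83 ± 0.76, adjusted p = 0.00196), and 37 of the 15263 tested genes had an increase at least as large in this fit. Leaving out any 1 of the 8 libraries kept the call, with adjusted p up to 0.0486. In mt+ the log2 fold change was -0.33 ± 0.60 (95% interval -1.61 to 0.94), and 0.28 without dnmt1 mt+ replicate 2.

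The difference between the genotype effects on LCIA was -4.17 ± 1.00 (mt+ minus mt-, adjusted p = 0.0111). It was lost without dnmt1 mt- replicate 1 (adjusted p = 0.0707) or WT mt- replicate 1 (adjusted p = 0.0849). The ratio of summed LCIA counts, WT mt+ over WT mt-, was 9.11 (3.19 to 35.7, or 2.09 to 82.6 if each fragment was counted as a pair). LCIA was thus also higher in WT mt+ than in WT mt-, and it was called (adjusted p = 0.0142). That call was lost without WT mt- replicate 1 or 2 (adjusted p = 0.140 and 0.0677). Between the strains labelled dnmt1 the value was -1.06 ± 0.55 (95% interval -2.24 to 0.12). With all counts halved LCIA no longer had enough reads to be tested.

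The carrier genes CCP1 and CCP2 are near-identical copies, so that reads may be split between them by the counting, and values of each alone are uncertain. CCP2 had 4.06 and 4.43 CPM in dnmt1 mt+, against 6.46 and 4.72 CPM in WT mt+. It had 7.12 and 7.63 CPM in dnmt1 mt-, against 12.9 and 11.7 CPM in WT mt-. The order was WT mt-, dnmt1 mt-, WT mt+ and dnmt1 mt+, from high to low, and no neighbours in it overlapped.

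CCP2 fell in the libraries labelled dnmt1 in mt- (log2 fold change -0.74 ± 0.19, adjusted p = 0.0104), and its value in mt+ was -0.38 ± 0.22 (adjusted p = 0.263). The difference of the effects was 0.36 ± 0.29 (95% interval -0.26 to 0.97). The call in mt- was lost without dnmt1 mt- replicate 1 or 2 (adjusted p = 0.0879 and 0.0553) or WT mt- replicate 1 (adjusted p = 0.105). CCP2 was lower in mt+ than in mt-, by -0.80 ± 0.21 between the strains labelled dnmt1 (adjusted p = 0.0134) and by -1.16 ± 0.20 between the WT strains (adjusted p = 0.000823). The call between the WT strains held without any 1 library (adjusted p up to 0.0211). The call between the strains labelled dnmt1 was lost without dnmt1 mt+ replicate 1 or 2 (adjusted p = 0.114 and 0.0652) or dnmt1 mt- replicate 1 or 2 (adjusted p = 0.0610 and 0.0876).

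CCP1 differed in another way. It had 2.75 and 1.54 CPM in dnmt1 mt+, against 3.74 and 2.24 CPM in WT mt+. In mt- it had 2.35 and 1.70 CPM in dnmt1, against 1.06 and 1.01 CPM in WT. WT mt- was lowest and did not overlap any other group, while the other groups overlapped each other. CCP1 was higher in WT mt+ than in WT mt- (log2 fold change 1.49 ± 0.41, adjusted p = 0.0182). The call was lost without WT mt+ replicate 1 (1.10, adjusted p = 0.0851) or WT mt- replicate 1 or 2 (adjusted p = 0.110 and 0.0942). Its genotype effects were -0.44 ± 0.38 in mt+ and 0.96 ± 0.43 in mt- (adjusted p = 0.483 and 0.116). Their difference was -1.40 ± 0.57 (adjusted p = 0.125), and it was called without WT mt+ replicate 2 (-1.75, adjusted p = 0.0221).

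Summing both copies removes the question of how counted reads were split between them. It does not correct for reads of both copies that were left uncounted or counted for each, as the counting settings are not given. The summed log2 fold change, dnmt1 over WT, was -0.40 ± 0.20 in mt+ (adjusted p = 0.194) and -0.50 ± 0.18 in mt- (adjusted p = 0.0597). Between mt+ and mt- the sum was -0.55 ± 0.20 in the strains labelled dnmt1 (adjusted p = 0.0581) and -0.66 ± 0.19 in WT, which was called (adjusted p = 0.0214). Within a library the ratio of the copies does not depend on scaling. CCP2 counts per CCP1 count were 1.48 and 2.87 in dnmt1 mt+, against 1.73 and 2.11 in WT mt+. In mt- they were 3.03 and 4.48 in dnmt1, against 12.1 and 11.5 in WT. The exact 95% counting interval of WT mt- replicate 1 (7.96 to 19.2) lay above those of dnmt1 mt- (2.07 to 4.52 and 2.88 to 7.22), and that of WT mt- replicate 2 (6.80 to 21.1) overlapped the second. Both WT mt- intervals lay above those of the mt+ libraries (1.00 to 4.83 over all 4). With counts halved, as for read pairs counted by both mates, the WT mt- intervals (6.71 to 23.9 and 5.71 to 31.5) both overlapped that of dnmt1 mt- replicate 2 (2.47 to 9.57), and that of WT mt- replicate 2 also overlapped that of dnmt1 mt+ replicate 2 (1.48 to 6.58), so these separations are not firm.

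At the thylakoid membrane, the bestrophin-like genes differed from each other, although BST2 and BST3 are direct neighbours on chromosome 16. These genes are also similar in sequence, so reads may be shared between them. BST2 had 19.8 and 21.7 CPM in dnmt1 mt+, against 20.8 and 16.5 CPM in WT mt+. In mt- it had 15.2 and 14.0 CPM in dnmt1, against 36.6 and 33.2 CPM in WT. WT mt- was highest by a wide margin, dnmt1 mt- was lowest, and the mt+ groups overlapped each other.

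BST2 fell in the libraries labelled dnmt1 in mt- (log2 fold change -1.26 ± 0.13, adjusted p = 1.32e-05), and 209 of 15263 tested genes had a decrease at least as large. In mt+ the value was 0.16 ± 0.14 (95% interval -0.13 to 0.45), and -0.00733 without WT mt+ replicate 2. The effects differed, by 1.42 ± 0.19 (mt+ minus mt-, adjusted p = 0.000133). BST2 was lower in WT mt+ than in WT mt- (-0.92 ± 0.13, adjusted p = 0.000235), while between the strains labelled dnmt1 it was higher in mt+ (0.50 ± 0.14, adjusted p = 0.0168). The call between the strains labelled dnmt1 was lost without dnmt1 mt+ replicate 2 (adjusted p = 0.128) or dnmt1 mt- replicate 1 or 2 (adjusted p = 0.0589 and 0.130). The other 3 calls of BST2 held without any 1 library, with adjusted p up to 0.00109 for the effect in mt-, 0.00266 for the difference of effects and 0.0107 between the WT strains.

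BST3 had 56.9 and 57.1 CPM in dnmt1 mt+, against 40.5 and 33.4 CPM in WT mt+. It had 38.4 and 32.3 CPM in dnmt1 mt-, against 26.7 and 23.9 CPM in WT mt-. The group dnmt1 mt+ was highest, WT mt- was lowest, and WT mt+ and dnmt1 mt- overlapped in between. BST3 was the gene of the 8 called higher in both mating types, while BST1 was above 0 in both (1.07 and 0.36) without a call. The log2 fold changes of BST3 were 0.63 ± 0.12 in mt+ (adjusted p = 0.00142) and 0.48 ± 0.12 in mt- (adjusted p = 0.00939). The difference of the effects was 0.15 ± 0.17 (95% interval -0.21 to 0.51, adjusted p = 0.621). The call in mt+ held without any 1 library (adjusted p up to 0.0186), and that in mt- was lost without dnmt1 mt- replicate 1 (0.34, adjusted p = 0.154) or WT mt- replicate 2 (0.41, adjusted p = 0.111).

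BST3 was also higher in mt+ than in mt-, by 0.69 ± 0.12 between the strains labelled dnmt1 (adjusted p = 0.000694) and 0.54 ± 0.12 between the WT strains (adjusted p = 0.00558). The call between the WT strains was lost without WT mt- replicate 2 (adjusted p = 0.0791). BST1 had few reads, 31 and 25 counts in dnmt1 mt+ (1.85 and 1.68 CPM), against 10 and 14 in WT mt+ (0.849 and 0.826 CPM). In mt- it had 15 and 6 counts in dnmt1 (0.954 and 0.409 CPM), against 12 and 8 in WT (0.532 and 0.539 CPM). It was highest in dnmt1 mt+, and the mt- groups overlapped. BST1 was not called for genotype in mt+ (1.07 ± 0.48, adjusted p = 0.140) or between the strains labelled dnmt1 (1.35 ± 0.49, adjusted p = 0.0588). The comparison of those strains passed without WT mt+ replicate 1 or 2 (adjusted p = 0.0381 and 0.0385) and in a fit to those groups alone (adjusted p = 0.0266).

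The balance of BST2 and BST3 set WT mt- apart. BST2 counts per BST3 count were 0.348 and 0.380 in dnmt1 mt+, against 0.514 and 0.495 in WT mt+. In mt- they were 0.396 and 0.434 in dnmt1, against 1.37 and 1.39 in WT. In WT mt- the ratio was above 1, with counting intervals of 1.24 to 1.53 and 1.21 to 1.60, while the highest upper limit in the other 6 libraries was 0.600. With counts halved the WT mt- intervals (1.18 to 1.60 and 1.14 to 1.70) still lay above the highest upper limit of the other 6, 0.640. Replicates of each group were within each other's intervals. The mt- ratio in the libraries labelled dnmt1 lay inside the range of the mt+ libraries. With the 3 bestrophin-like genes summed to 1 row, the log2 fold change, dnmt1 over WT, was 0.50 ± 0.11 in mt+ (adjusted p = 0.00485) and -0.26 ± 0.11 in mt- (adjusted p = 0.0973), and the difference was called (0.76 ± 0.16, adjusted p = 0.00386). All 8 genes together had 97.5 and 95.6 CPM in dnmt1 mt+, against 86.8 and 69.7 CPM in WT mt+. In mt- they had 77.3 and 66.1 CPM in dnmt1, against 84.8 and 78.4 CPM in WT. BST2 and BST3 took 69.3% to 82.4% of those counts.

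**Figure D3:**
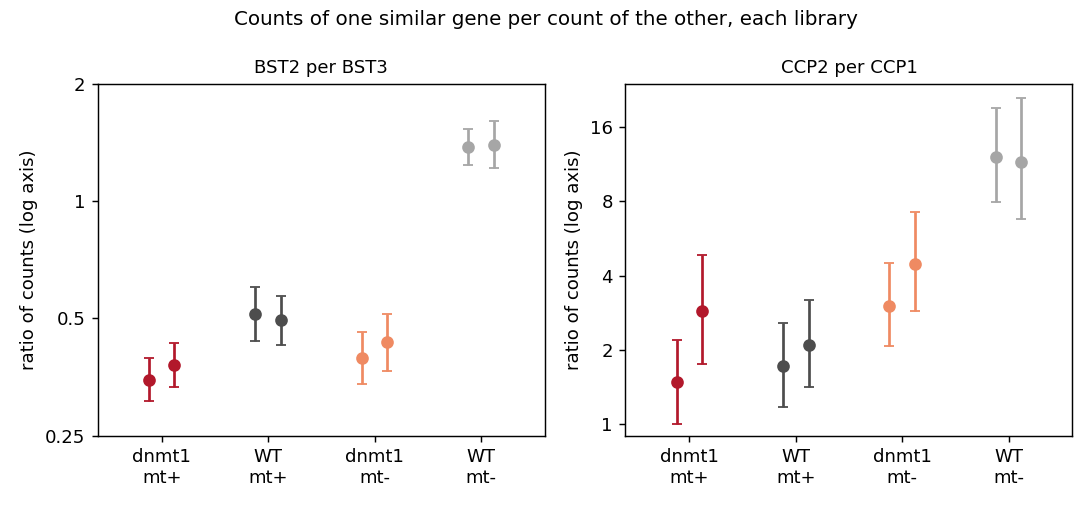
Counts of BST2 per count of BST3 (left) and of CCP2 per count of CCP1 (right) in each library, on log axes, with exact 95% counting intervals. For BST2 per BST3 the WT mt- libraries sit at 1.37 and 1.39, and the other 6 libraries between 0.348 and 0.514.

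Across the 8 libraries HLA3, LCIA and CCP1 varied together. Pearson's r of log2 CPM was 0.96 for CCP1 with HLA3, 0.84 for CCP1 with LCIA, 0.82 for LCIA with HLA3 and 0.91 for BST3 with BST1, and 0.62 for BST2 with CCP2. It was -0.90 for BST2 with LCIA and -0.87 for BST3 with CCP2. These are descriptions over 8 libraries that share 4 groups, and the WT mt- libraries lie at 1 end of most of them. The genes most like each called gene, of 14456 to 14457 genes averaging 1 CPM or more, carry no symbol in the tables used here. The closest were Cre09.g386119 (r = 0.973) for HLA3, Cre03.g145227 (r = 0.979) for LCIA, Cre07.g337300 (r = 0.992) for CCP1, Cre17.g718100 (r = 0.995) for CCP2, Cre07.g354850 (r = 0.976) for BST2 and Cre01.g050950 (r = 0.988) for BST3. The next were Cre17.g738900, Cre14.g618200, Cre03.g165350, Cre11.g467547, Cre16.g680588 and Cre01.g003550 in the same order of genes, with r of 0.973 to 0.991. Cre01.g050950, like BST3, was highest in dnmt1 mt+ (mean 48.3 CPM) and lowest in WT mt- (mean 19.3 CPM).

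CCP2 and CCP1 lie at the ends of a run of 11 gene IDs on chromosome 4 that also holds the carbonic anhydrase genes CAH1 (Cre04.g223100) and CAH2 (Cre04.g223050) and LCID (Cre04.g222800). LCID, a relative of the stromal protein LCIB, is next to CCP2 by ID and, like it, fell in mt-. It had 8 and 10 counts in dnmt1 mt-, against 58 and 40 in WT mt- (log2 fold change -2.14 ± 0.48, adjusted p = 0.00473), and 20 and 14 in dnmt1 mt+, against 4 and 18 in WT mt+. The call in mt- was lost without dnmt1 mt- replicate 1 (adjusted p = 0.0658). CAH1, a periplasmic carbonic anhydrase, rose in mt- (log2 fold change 2.88 ± 0.11, adjusted p = 7.07e-11) and, like CCP1, had its lowest level in WT mt-. CAH2 was not called in any of the 5 comparisons.

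Of the 8 tested genes in that run other than CCP1 and CCP2, 1 was higher (CAH1) and 1 lower (LCID) in the libraries labelled dnmt1 mt-, with a median log2 fold change of -0.02, beside 0.01 over all tested genes. The shares for the whole set of tested genes were 11.9% higher and 11.6% lower in mt-, and 9.27% and 8.83% in mt+. In mt+ 2 of the 8 were lower and none higher, CAH1 and Cre04.g223200 (named after its value was seen). On chromosome 16, of 14 tested genes with IDs between BST1 and BST3, 2 were higher and 1 lower in dnmt1 mt-, with log2 fold changes from -0.70 to 0.70. The fall of BST2 in mt-, by 1.26 on the log2 scale, was outside that range. In mt+ 1 of the 14 was higher and 2 lower, and BST2 lay inside their range of -0.55 to 1.16. The gene at the upper end (1.16 ± 0.40) was not called (adjusted p = 0.0573). Between the WT strains BST2 (-0.92 ± 0.13) lay beside the lowest of the 14 (-0.90 ± 0.40), which was not called (adjusted p = 0.126). Between the WT strains 3 of the 8 genes on chromosome 4 were higher in mt+ and 1 lower. On chromosome 16, 1 of the 14 was higher and 0 lower, beside 10.6% higher and 10.9% lower over all tested genes. In mt- the counts in both runs lay near the shares over all tested genes. The runs hold few genes, and whether the other counts depart from the shares was not tested.

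**Figure D4:**
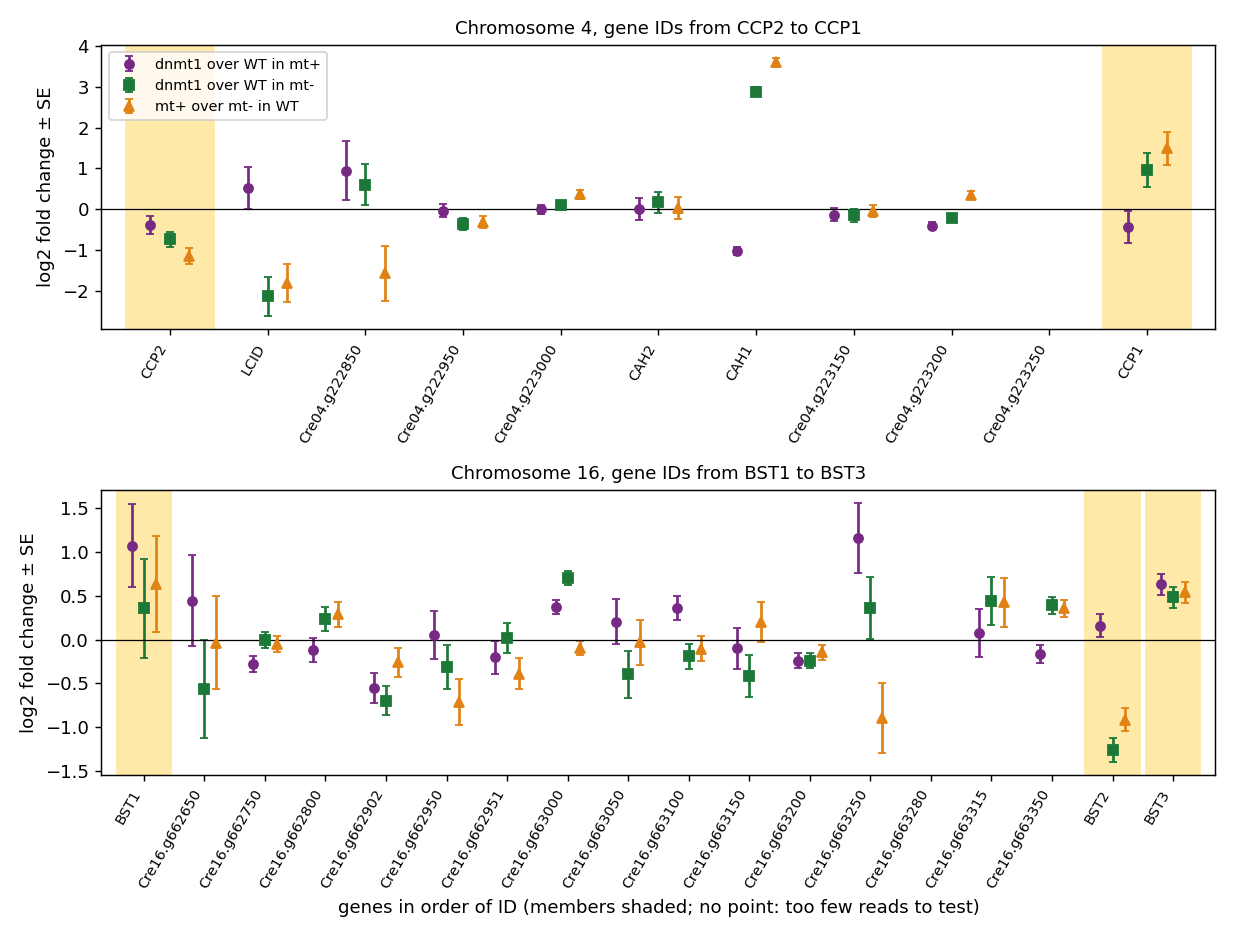
Log2 fold changes ± SE of all tested genes with IDs from CCP2 to CCP1 (top) and from BST1 to BST3 (bottom), in order of ID and with the genes described here shaded, for dnmt1 over WT in mt+ (circles) and in mt- (squares) and for mt+ over mt- in WT (triangles). In mt- CAH1 (2.88) and LCID (-2.14) lie at the ends of the range on chromosome 4 and BST2 (-1.26) lies below its neighbours on chromosome 16, while in mt+ LCID and BST2 lie within the range of their neighbours.

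Of 14 other genes of the carbon-concentrating mechanism, all tested, 1 rose and 6 fell in the libraries labelled dnmt1 mt+, beside 9.27% and 8.83% of all tested genes. CAH3, the carbonic anhydrase of the thylakoid lumen, rose, and CAH1, CAH4, CAH5, CAH8, the regulator gene CIA5 and the pyrenoid linker gene EPYC1 fell. CAH4 and CAH5 are near-identical copies and CAH1 and CAH2 are similar, so reads may be shared within each pair. In mt- 6 rose, CAH1 and CAH4 to CAH8, and LCID fell, beside 11.9% and 11.6%. The median log2 fold change of the 14 genes was -0.13 in mt+ and 0.31 in mt-, beside -0.00169 and 0.01 over all tested genes. The effects differed between the mating types for 8 of 14, beside 13.8% of all tested genes, with CAH3 and LCID more positive in mt+ and CAH1, CAH4, CAH5, CAH7, CAH8 and EPYC1 more negative.

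The fold changes of the mitochondrial carbonic anhydrases, CAH4 (Cre05.g248400) and its copy CAH5 (Cre05.g248450), were larger in mt- than those of the 7 tested transporter and channel genes. CAH4 averaged 540 ± 29.0 CPM in dnmt1 mt-, against 25.9 ± 1.73 CPM in WT mt- (SD, n = 2 each), a log2 fold change of 4.39 ± 0.14 (adjusted p = 1.51e-11). Its mt+ means were 260 ± 4.82 CPM in dnmt1, against 525 ± 126 CPM in WT (SD, n = 2 each). The log2 fold change of CAH5 in mt- was 4.12 ± 0.14 (adjusted p = 1.87e-11). CAH5 averaged 200 CPM in dnmt1 mt- and 11.6 CPM in WT mt-, and 89.2 CPM in dnmt1 mt+ and 204 CPM in WT mt+. In mt+ both fell, by 1.01 and 1.19 on the log2 scale, and the differences of effects (mt+ minus mt-) were -5.40 ± 0.19 and -5.31 ± 0.18 (adjusted p = 3.50e-11 for each). CAH4 and CAH5 were also higher in WT mt+ than in WT mt- (4.34 ± 0.14 and 4.14 ± 0.14, adjusted p = 1.73e-11 and 1.76e-11). WT mt- was thus the lowest group for both.

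CAH8 (Cre09.g405750), another periplasmic carbonic anhydrase, had a mean of 32.2 ± 0.756 CPM in dnmt1 mt+, against 48.2 ± 10.9 CPM in WT mt+ (SD, n = 2 each). In mt- the mean was 61.9 ± 2.34 CPM in dnmt1, against 44.4 ± 0.622 CPM in WT (SD, n = 2 each). Its log2 fold changes were -0.57 ± 0.13 and 0.48 ± 0.12, and their difference was -1.05 ± 0.18 (adjusted p = 0.000822). CAH7 (Cre13.g607350) had 155 ± 9.17 CPM in dnmt1 mt- and 103 ± 0.237 CPM in WT mt- (SD, n = 2 each), a log2 fold change of 0.60 ± 0.09 (adjusted p = 0.000334). CAH7 was also higher in WT mt+ than in WT mt- (0.69 ± 0.09, adjusted p = 0.000141). The call of CAH8 in mt+ was lost without dnmt1 mt+ replicate 1 or 2 (adjusted p = 0.0508 and 0.0629), and in mt- without dnmt1 mt- replicate 1 (adjusted p = 0.0962) or WT mt- replicate 1 or 2 (adjusted p = 0.102 and 0.0691). The call of CAH6 in mt- was lost without any 1 of the 4 mt- libraries (adjusted p = 0.0577 to 0.148). CIA5 lost its call in mt+ without dnmt1 mt+ replicate 1 or 2 (adjusted p = 0.0750 and 0.0957), and EPYC1 without dnmt1 mt+ replicate 2 (adjusted p = 0.0667). The difference of effects on LCID was called with all libraries (adjusted p = 0.0220) and lost without any 1 library of dnmt1 mt+, dnmt1 mt- or WT mt- (adjusted p = 0.0554 to 0.105), and that on CAH3 was lost without dnmt1 mt+ replicate 1, dnmt1 mt- replicate 2 or WT mt- replicate 1 (adjusted p = 0.0553, 0.0606 and 0.0593).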

How the data were processed

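Total RNA of 8 libraries was sequenced after a NEBNext kit. The tools named in the submitters' processing notes are STAR 2.7.6, featureCounts, Trim Galore 2.6, DESeq2 and Picard; their roles, settings and genome build are not given in the sources used here, and the kit is not stated to mark strand, so overlapping and antisense genes cannot be told apart. The authors deposited raw counts per gene, which were analysed, and a table of normalized signal. The deposited signal is each library's counts over a size factor (0.749 to 1.42) and entered no result. IDs are those of the v6.1 annotation of CC-4532, printed without their ending for genes other than the 8. The reference table (assembly v5.5) has no symbols; all 8 IDs matched it, and it gave gene order only. Symbols are from standard nomenclature. Coordinates served only to put genes in order, and sequences were not used here.

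After filterByExpr and TMM scaling, edgeR 4.0.16 in R 4.3.3 fitted the counts (glmQLFit, 4 group means, 4 residual degrees of freedom, glmQLFTest, 2-sided). CPM use the TMM-scaled library size. The fit shares information on spread between genes, so p-values and intervals of the 7 tested genes used 15.4 total degrees of freedom. The standard error is the fold change divided by the square root of F. Intervals for counts are exact and cover counting error only. For likeness, log2 CPM used a prior count of 2; the 2 genes with the highest r were named for each called member. The fit was tested on simulated data. DESeq2 1.42.0 was an alternative. Tables and plots used Python 3.11.15 and matplotlib 3.10.9. The members, lists and tests were chosen with earlier results of these data known. The named genes were the 8 members, 14 other genes of the mechanism, the genes between members by ID, and the most alike genes. Other alternatives were DESeq2's size factors (RLE), library size scaling, no low-count filter, the compared groups alone, the replicate number as a block, halved counts, similar copies summed, and leaving out each library.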

Additional observations from a re-analysis of the deposited data

Results flagged for a closer look

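LCIA and BST2 had genotype effects that differed between the mating types by the test of the difference itself. For LCIA the difference of log2 fold changes (mt+ minus mt-) was -4.17. Its summed counts were 25 in dnmt1 mt+, against 28 in WT mt+. In mt- they were 50 in dnmt1, against 4 in WT. For BST2 the difference was 1.42. BST2 averaged 20.7 ± 1.35 CPM in dnmt1 mt+, against 18.7 ± 3.03 CPM in WT mt+ (SD, n = 2 each). In mt- it averaged 14.6 ± 0.825 CPM in dnmt1, against 34.9 ± 2.40 CPM in WT (SD, n = 2 each). Transcripts of the DMT1 locus were more abundant in mt- libraries with the dnmt1 label, and the part of this in both results was not tested.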

How the results depend on the processing

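Scaling with RLE or by library size, no low-count filter, DESeq2 and the replicate block changed no call of the members. The count of members called was also unchanged by the block (1 in mt+, 4 in mt-, 2 for the difference, 3 between the strains labelled dnmt1, 6 between the WT strains). The numbers pair no samples by any label, and replicate differences correlated between groups by -0.05 to 0.15. Library size scaling gave HLA3 a value of 0.0221 between the strains labelled dnmt1 (-0.01 with TMM), and it called 33.1% of changed genes higher in mt- (50.6% with TMM), 64.4% for the difference (49.3%) and 37.9% between the WT strains (49.2%). Halved counts left 1 member called for the difference, BST2, since LCIA had too few reads to be tested in any comparison. In fits to the compared groups alone, 1519 genes were called in mt+, 5659 in mt-, 5221 between the strains labelled dnmt1 and 1771 between the WT strains.

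Without 1 library, members called ranged from 1 to 1 in mt+, 2 to 5 in mt-, 1 to 4 for the difference, 1 to 4 between the strains labelled dnmt1 and 3 to 6 between the WT strains. All genes called ranged from 1305 to 4181 (2763 with all 8), 1593 to 5682 (3594), 1088 to 4341 (2109), 1452 to 5320 (3363) and 1306 to 4869 (3280) in the same order. Without 1 library, signs turned only for values that were not called: LCIA in mt+ ranged from -1.52 to 0.28, BST2 in mt+ from -0.00733 to 0.33, BST1 in mt- from -0.39 to 0.82, and, between the strains labelled dnmt1, HLA3 from -0.17 to 0.19 and CCP1 from -0.38 to 0.44. Giving each copy the value of its sum turned CCP1 to -0.50 in mt-, 0.10 for the difference, -0.55 between the strains labelled dnmt1 and -0.66 between the WT strains, and BST1 and BST3 to -0.26 in mt- and -0.11 between the WT strains. The cause of the changes by library was not tested. Alternatives for DMT1 and the 14 other genes of the mechanism, and the copy ratios from halved counts, were chosen after seeing the data. Depth limits LCI1, LCIA and BST1.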
